A study of Homo sapiens and Mus musculus with 7 samples.

Results

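KAP1 knockdown was compared with control in HEL cells kept with hemin, and the comparison covers all genes measured in 1 library a side. HEL is a human erythroleukaemia cell line that expresses red cell, megakaryocyte and other myeloid genes side by side. The knockdown library is labelled KAP1 KD and the control library KAP1 WT. Cells of both received hemin at 50 µM for 5 days, a state that the labels call activated. HEL libraries of the same genotypes without hemin, 1 each, are given beside them, so 4 of the 7 samples of the series enter. The other 3 samples are chromatin libraries of sorted mouse cells and were not used. The sources used here do not give how the knockdown was made, what the control cells carried or whether either was a single clone. The columns of the control are headed Ctrl, and they were matched to KAP1 WT because it is the one other HEL genotype in the labels.

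For each gene the transcript with the highest mean was taken, which gave 14919 genes of 14946 symbols. The other symbols were second names of a transcript already taken. Levels are in scaled TPM, reads per transcript length after the libraries were scaled to each other, with a mean library sum of 1000000. The knockdown library had 41226870 reads on these transcripts and the control library 37154896. The libraries without hemin had 23531280 and 33532869 in the same order. A log2 ratio below is always knockdown over control, with 0.5 scaled TPM added to each level, and a fold is the plain ratio of scaled TPM. A gene was compared when its higher library reached 5 scaled TPM, which is called the floor here, and 2-fold was the limit for counting, applied to the log2 ratio with the 0.5 added. Intervals are exact 95% counting intervals of the reads without the added 0.5, so the log2 ratio of a low gene can lie outside its own. They cover counting error only and take each read as an independent molecule. The reads carried no molecular identifiers to check this, so the intervals may be too narrow. With 1 library a side there is no replicate, no p-value and no measure of the spread between cultures, so every difference describes these libraries.

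KAP1, encoded by TRIM28, is a corepressor that KRAB zinc finger proteins bring to DNA, where it gathers the histone methyltransferase SETDB1, HP1 proteins and histone deacetylases. In blood-forming tissue it is known as a factor needed for red cells to mature. Hemin, the oxidised form of haem, releases the repressor BACH1 from DNA, turns on haem oxygenase and antioxidant genes, and drives erythroleukaemia lines towards globin production.

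TRIM28 (NM_005762) itself was at 190.1 scaled TPM in knockdown cells against 399.9 in control cells with hemin, and at 317 and 421 without. The knockdown libraries were the 2 lowest of the 4. It was 2.10-fold lower with hemin, a log2 ratio of -1.07 against -0.41 without. The ratio with hemin was -0.97 when TRIM28 was scaled to plain totals and -0.86 from the deposited values without scaling, both under 2-fold. TRIM28 is 1 of 5 table rows that hold whole numbers only, so its reads are not known and it has no counting interval. Where these whole numbers come from is not known, and scaling them like the other rows assumes the same unit.

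Across all 10904 genes at the floor, 655 (6.01%) were higher by 2-fold or more in the knockdown and 448 (4.11%) lower by 2-fold or more, and the median log2 ratio was 0.007. Every list count below is to be read beside these shares. When libraries were scaled to plain totals instead, the split was 823 and 363 and the median 0.11, so the balance of directions depends on the scaling. The middle 90% of genes lay between log2 ratios of -0.93 and 1.07. For 481 of the higher and 357 of the lower genes the whole counting interval lay past 2-fold. With the 0.5 added, 17 genes were at least 8-fold lower and 8 at least 8-fold higher, and by the plain ratio 27 and 14. No value in the table was 0, so genes silent in a library may have no row.

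**Figure D1:**
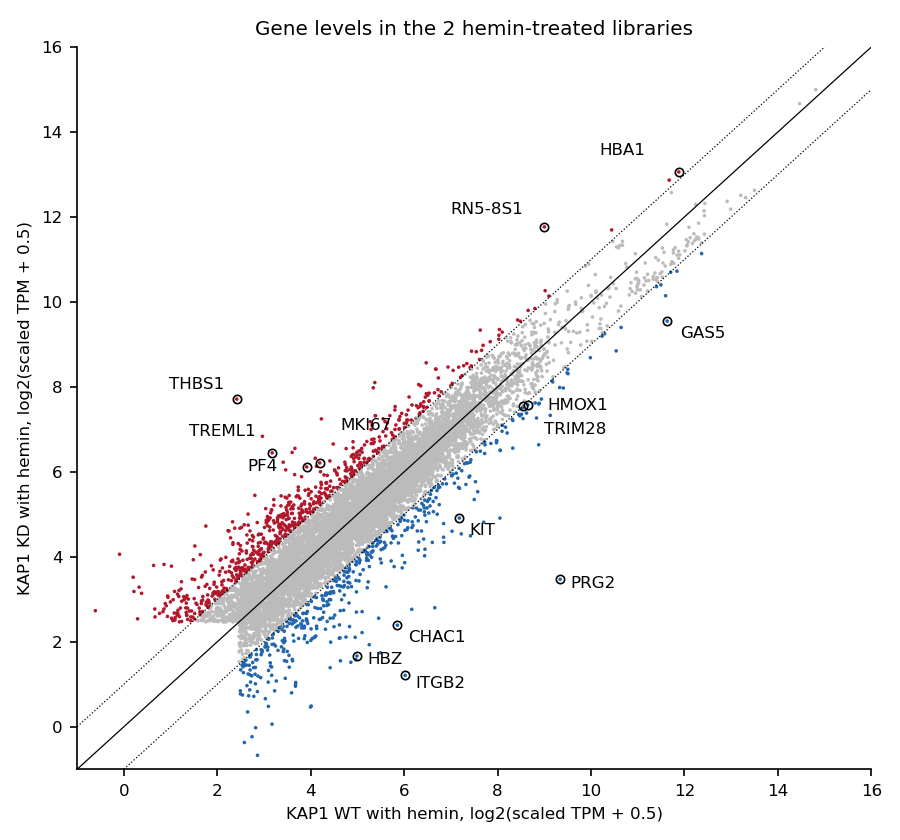
Level of each gene at the floor in the control library (horizontal axis) and the knockdown library (vertical axis), both with hemin, as log2 of scaled TPM plus 0.5. Each point is 1 gene, red higher by 2-fold or more and blue lower by 2-fold or more; the solid line marks equal levels and the dotted lines 2-fold. PRG2, ITGB2 and HBZ lie far below the line and THBS1 far above it, and TRIM28 sits at the lower 2-fold limit.

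Among 35 genes of KAP1 and its silencing partners at the floor, 1 was lower by 2-fold or more, TRIM28 itself, and 2 were higher by 2-fold or more. Both counts are near the shares of all genes, 6.01% higher and 4.11% lower. SETDB1 was at 28.7 against 43.9 scaled TPM, a log2 ratio of -0.60, and the HP1 gene CBX5 had 0.16. The members higher by 2-fold or more were UHRF1 (33.7 against 10.7 scaled TPM, log2 ratio 1.61), which guides maintenance DNA methylation, and the DNA methyltransferase gene DNMT3B (90.2 against 32.9 scaled TPM, 1.44). Both were on the higher side without hemin as well, at 1.45 and 1.52. Zinc finger genes, the family that includes the KRAB members, had a median log2 ratio of -0.15 over 334 genes at the floor. Of these, 5 were higher by 2-fold or more, led by ZNF385D (2.10), and 7 lower by 2-fold or more, led by ZNF358 (-1.67). Zinc finger genes were thus past 2-fold less often than all genes, in either direction.

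Granule and surface genes of mast cells, eosinophils and other myeloid cells included the lowest ratios, among them PRG2 and ITGB2. PRG2 (NM_002728), the major basic protein of eosinophil granules, was at 10.6 scaled TPM in knockdown cells against 647 in control cells, 61.2-fold lower with a counting interval of -6.15 to -5.73 on the log2 scale. Without hemin its levels were 6.82 and 1345, so both control libraries stood far above both knockdown libraries. The tryptase genes TPSAB1 (0.877 against 15.4 scaled TPM), TPSB2 (0.898 against 15.6 scaled TPM) and TPSD1 (0.89 against 8.02 scaled TPM) were low in the knockdown too, though they are near-identical copies whose reads the counting could have split. CPA3, a mast cell carboxypeptidase, was at 23.8 against 82.2 scaled TPM (log2 ratio -1.77), while HDC, which makes histamine, was at 954 against 1594 scaled TPM (-0.74) and stayed under 2-fold. FCER1A, a chain of the IgE receptor on mast cells, was at 1007 against 1066 scaled TPM (-0.08), so it was near equal, and the eosinophil peroxidase gene EPX was close to 0, at 0.244 and 0.181 scaled TPM. In the mast cell and eosinophil list 7 of 13 members at the floor were lower by 2-fold or more and 0 higher by 2-fold or more, with a median of -1.09. The list's summed level was 2632 scaled TPM in knockdown cells and 4445 in control cells. These cells are a single line in bulk, so fewer cells that express a gene and less RNA per cell cannot be told apart, here and below.

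The leukocyte integrin gene ITGB2 (NM_000211) was at 1.81 scaled TPM in knockdown cells against 64.3 in control cells, a log2 ratio of -4.81, and at 8.01 and 126 without hemin. CD68, a lysosomal protein of macrophages, was at 21.5 against 114 scaled TPM (-2.39), and CD4, which monocytes also carry, at 3.45 against 14.7 scaled TPM (-1.94). The transcription factor gene SPI1, which encodes PU.1, was at 63.1 against 126 scaled TPM. Of 20 monocyte, macrophage and neutrophil genes at the floor, 6 were lower by 2-fold or more and 1 higher by 2-fold or more, with a median of -0.71. The list summed to 3688 scaled TPM in knockdown cells and 5124 in control cells. The monocyte markers CD14 and CSF1R were close to 0 in both libraries, CD14 at 0.247 against 0.321 scaled TPM and CSF1R at 0.428 against 0.548 scaled TPM.

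KIT (NM_001093772), the stem cell factor receptor of progenitors and mast cells, was at 29.6 scaled TPM in knockdown cells against 145 in control cells. Without hemin it was at 13.8 and 32.7, so the control with hemin was the highest of the 4 libraries. It was 4.89-fold lower, a log2 ratio of -2.27 (counting interval -2.35 to -2.23) against -1.22 without hemin. Of 17 receptor tyrosine kinase genes at the floor, KIT and FGFR3 were the 2 lower by 2-fold or more. FGFR3, a fibroblast growth factor receptor, was at 6.28 against 71.1 scaled TPM (-3.40). The 3 higher by 2-fold or more included EPHB1, an ephrin receptor, at 18.6 against 2.36 scaled TPM (2.74). Of 8 stem and progenitor genes at the floor KIT was the 1 lower by 2-fold or more, 2 were higher and 5 under 2-fold, with a median of 0.28. The higher ones were THY1 (159 against 51.2 scaled TPM, 1.63) and MYCN, a MYC family transcription factor (30.3 against 9.68 scaled TPM, 1.59), while CXCR4, a chemokine receptor, had 0.15 and MYB -0.64. CD34 stayed under the floor, at 1.92 and 0.817 scaled TPM. GATA2, a stem cell and mast cell transcription factor, was at 340.2 against 725 scaled TPM (-1.09).

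Platelet and megakaryocyte genes stood on the higher side with hemin. THBS1 (NM_003246), a matrix glycoprotein stored in platelet granules, was at 209 scaled TPM in knockdown cells against 4.83 in control cells, 43.3-fold higher with a counting interval of 5.31 to 5.56 on the log2 scale. Its levels without hemin were 72.6 and 4.28, so the control stayed low in both states and the knockdown was highest with hemin. TREML1, a receptor of platelet granule membranes, was at 86.6 against 8.51 scaled TPM (3.27, interval 3.11 to 3.60). NRGN, a calmodulin-binding protein, was at 251 against 39.9 scaled TPM (2.64) and MYL9, a myosin light chain, at 43 against 6.48 scaled TPM (2.64). Of 42 list members at the floor, 15 were higher by 2-fold or more, 1 (CD9, -1.50) lower by 2-fold or more and 26 under 2-fold. Among all genes at the floor 6.01% were higher by that much. The list's median was 0.54 with hemin and -0.03 for the same genes without.

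For several platelet genes the order of the libraries differed between the hemin states. The chemokine gene PF4, platelet factor 4, was at 68.8 scaled TPM in knockdown cells against 14.5 in control cells with hemin but at 37.9 and 58.3 without, log2 ratios of 2.21 and -0.62. PPBP, another granule chemokine, was at 6.95 against 1.34 scaled TPM with hemin and at 2.28 and 6.52 without (2.02 and -1.34). GP1BA, the main chain of the von Willebrand factor receptor, was at 145 scaled TPM in knockdown cells against 47.6 in control cells with hemin and 141 and 120.4 without. For PF4 and GP1BA the control with hemin was the lowest of the 4 libraries. The collagen receptor gene GP6 was lowest there too, at 47.6 against 14.9 scaled TPM with hemin and 63.0 against 54.2 without. MMRN1, multimerin, was at 67.4 against 32.4 scaled TPM with hemin and 40.2 against 71.8 without. Whether the difference between hemin states exceeds the spread between cultures was not tested, with 1 library each. Other platelet genes were near equal with hemin: the integrin chain ITGA2B had -0.03, GP9 -0.20, SELP 0.21 and TUBB1 0.11, while ITGB3, the partner chain of ITGA2B, had 1.22. Transcription factors of megakaryocytes and stem cells went both ways. Of 12 such genes at the floor, 7 had a ratio above 0 and 5 below, from -1.09 to 1.59, with a median of 0.13. By 2-fold or more 1 was higher and 1 lower, beside 6.01% and 4.11% of all genes. FLI1 had 0.52 and RUNX1 0.34. ETS1, outside that list and chosen after its values were seen, was at 458 against 173 scaled TPM (1.40).

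**Figure D2:**
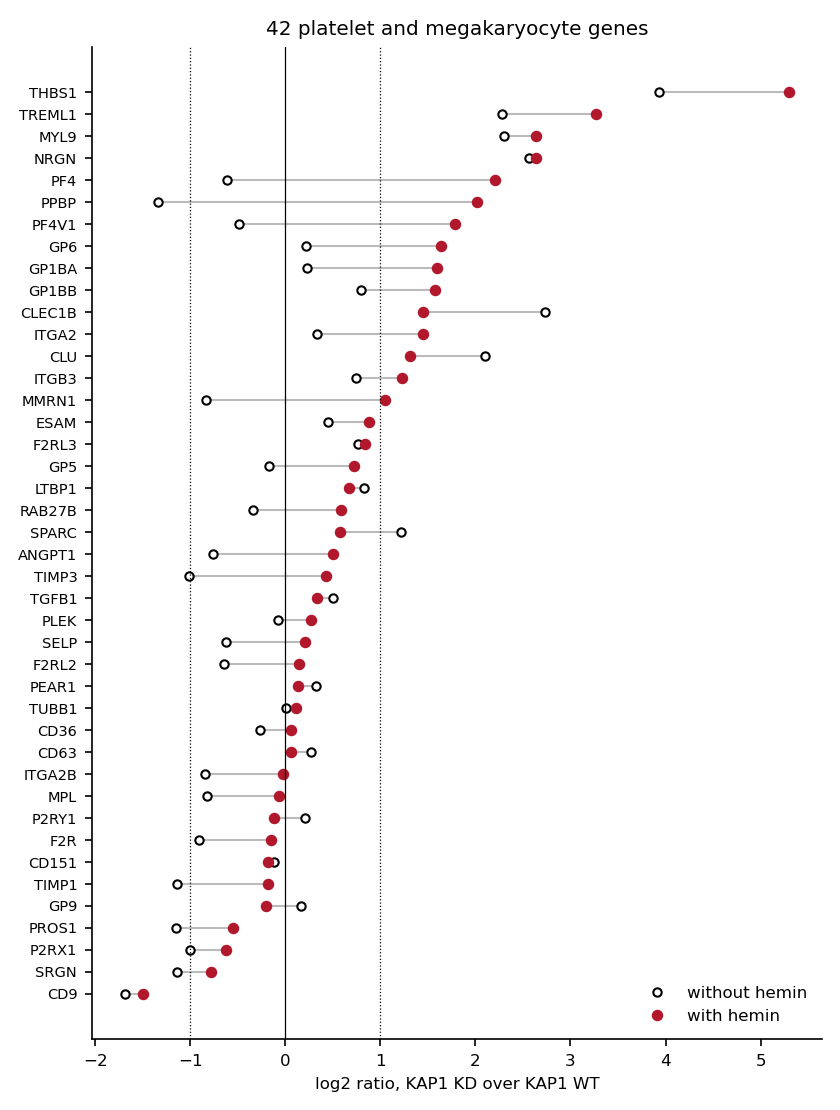
Log2 ratio of knockdown over control for the 42 platelet and megakaryocyte genes at the floor, with hemin (red) and without (open), joined by a line for each gene; dotted lines mark 2-fold. PF4, PPBP, PF4V1 and MMRN1 lie below 0 without hemin and above 1 with it, and CD9 is past 2-fold on the lower side in both states.

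Among the globin genes the embryonic zeta gene was lower, both alpha genes were higher and the others were under 2-fold. HBZ (NM_005332), the zeta globin, was at 2.67 scaled TPM in knockdown cells against 31.2 in control cells with hemin and at 4.92 and 6.17 without. Only the control with hemin was high, and the log2 ratio was -3.32 (interval -4.11 to -3.03, from 33 and 335 reads) against -0.30 without hemin. The alpha globin genes went the opposite way: HBA1 was at 8529 scaled TPM in knockdown cells against 3766 in control cells (1.18) and HBA2 at 7463 against 3263 scaled TPM (1.19). HBA1 was at 2662 and 1069 without hemin, so it was higher in the knockdown in both states. HBA1 and HBA2 are near-identical and could share reads. The fetal gamma globin genes were the most abundant, with HBG2 at 32675 scaled TPM in knockdown cells against 28728 in control cells (0.19) and HBG1 at 25954 against 22622 scaled TPM (0.20). Embryonic HBE1 had -0.44 with hemin and 0.73 without, and adult HBB was at 33.7 against 25.7 scaled TPM (0.38). Of 9 globin genes 2 were higher by 2-fold or more and 1 lower, and their summed level was 76211 scaled TPM in knockdown cells and 60510 in control cells.

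Haem synthesis and iron handling had members past 2-fold about as often as all genes, of which 6.01% were higher and 4.11% lower. Of 16 haem synthesis genes, UROD, a decarboxylase of the pathway, was the 1 higher by 2-fold or more (464 against 201 scaled TPM, 1.20) and 0 were lower. The first enzyme of the pathway had -0.45 for its erythroid gene ALAS2 and -0.65 for its general gene ALAS1, and FECH, which inserts the iron, had -0.21. SLC25A37, the mitochondrial iron importer mitoferrin, was at 321 scaled TPM in knockdown cells against 718 in control cells with hemin and at 272 and 272 without. Its control with hemin stood above the other 3 libraries, which were close to each other. GLRX5, needed for iron-sulphur clusters, was at 140.4 against 63.5 scaled TPM (1.14), and these were the only members of the 23 past 2-fold. The transferrin receptor gene TFRC had -0.42 and the ferritin chains FTH1 and FTL had -0.26 and -0.55.

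Among genes that hemin is known to turn on through BACH1 and NRF2, 23 of 36 had a ratio below 0. HMOX1, haem oxygenase, was at 187 scaled TPM in knockdown cells against 371 in control cells with hemin and at 8.64 and 5.50 without. It was thus far higher in both hemin libraries, and the control with hemin was the highest (-0.98, interval -1.03 to -0.94). BLVRB, a biliverdin reductase, was at 195 against 474 scaled TPM (-1.28). The cystine transporter gene SLC7A11 had -1.39, the small MAF genes MAFF and MAFG -1.54 and -1.07, and GSTP1, a glutathione transferase, -1.12. NQO1, a quinone reductase, was the one member higher by 2-fold or more, at 17.5 against 5.11 scaled TPM (1.69). The glutathione synthesis gene GCLM had 0.11 and the thioredoxin reductase gene TXNRD1 -0.08. Of these members 5 were lower by 2-fold or more, with a median of -0.12.

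Red cell membrane and blood group genes went both ways. The Rhesus genes RHCE (228 against 88.3 scaled TPM, 1.37) and RHD (121 against 52.5 scaled TPM, 1.19) were higher, and these are close copies that could share reads. EPB49, which encodes the actin-bundling protein dematin, had 1.14. On the lower side the adducin gene ADD2 was at 1.61 against 9.09 scaled TPM (-2.19), the water channel genes AQP1 and AQP3 had -2.03 and -1.97, and SLC2A1, the glucose transporter, had -1.15. SLC2A1 was at 73.3 scaled TPM in knockdown cells against 163 in control cells with hemin but at 85.5 and 87.3 without. Of 37 members 4 were higher by 2-fold or more and 5 lower, and the median was -0.05.

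GATA1, the central transcription factor of the red cell lineage, was at 283 against 345 scaled TPM (-0.28), KLF1, a globin activator, at 111 against 179 scaled TPM (-0.69), and TAL1 at 207 against 212 scaled TPM (-0.04). LDB1, which joins these factors into a complex, was at 301 against 581 scaled TPM (-0.95). The GATA1 cofactor gene ZFPM1 was at 44.9 against 19.1 scaled TPM (1.21), the 1 of 19 red cell transcription factor genes past 2-fold, beside the 6.01% higher and 4.11% lower of all genes. EPOR, the erythropoietin receptor, was at 28.3 against 78.3 scaled TPM (-1.45), and it was the 1 of 25 genes of that receptor and its JAK-STAT pathway past 2-fold. CSF2RB, the shared chain of the IL-3 and GM-CSF receptors, had -0.98.

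**Figure D3:**
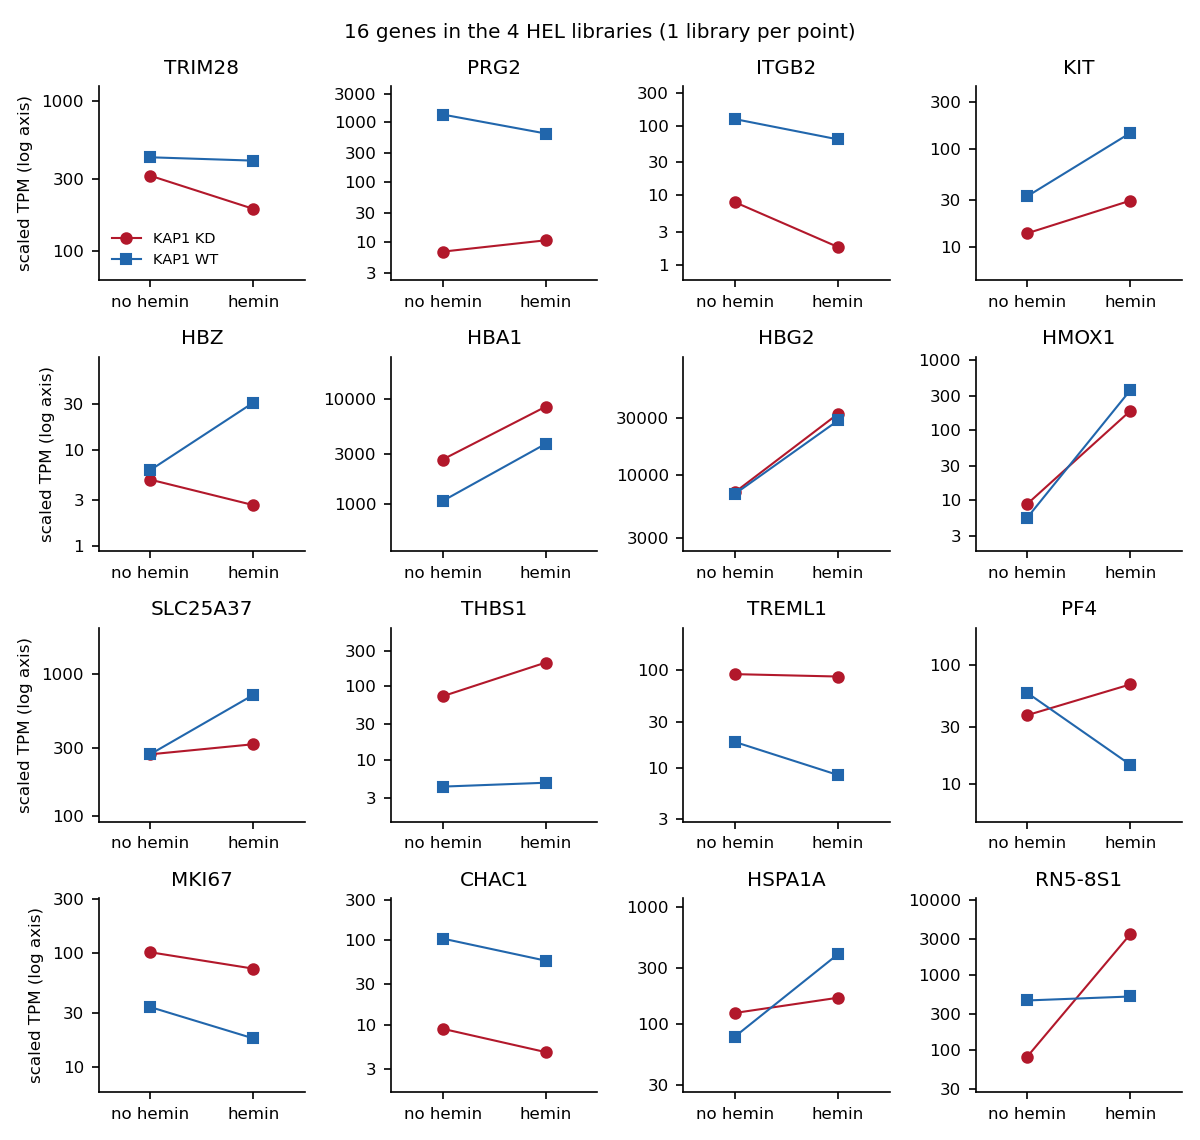
Level of 16 genes in scaled TPM (log axis) without and with hemin, for KAP1 KD (red circles) and KAP1 WT (blue squares), 1 library per point. HBZ and SLC25A37 are high in the control with hemin only, PF4 is lowest there, and the 5.8S ribosomal RNA row RN5-8S1 is high in the knockdown with hemin only.

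Genes of cell division were higher in the knockdown almost throughout. In the mitosis list 55 of 63 members at the floor were higher by 2-fold or more, 0 were lower by 2-fold or more and all 63 had a ratio above 0, the lowest 0.03, with a median of 1.39. Without hemin the median of the same genes was 0.92. DLGAP5, a spindle protein, was at 65.5 scaled TPM in knockdown cells against 10.5 in control cells (2.58, interval 2.51 to 2.77). The separase gene ESPL1 was at 31.6 against 5.80 scaled TPM (2.35), the transcription factor gene MYBL2 at 60.6 against 12.1 scaled TPM (2.28) and ANLN, a cytokinesis protein, at 25 against 5.09 scaled TPM (2.19). MKI67, which encodes the Ki-67 antigen, was at 73.4 scaled TPM in knockdown cells against 17.8 in control cells with hemin and at 103 and 33.6 without. Both knockdown libraries stood above both controls for MKI67, and the control with hemin was lowest. CDK1, the kinase that starts mitosis, was at 81.8 against 40.0 scaled TPM with hemin (1.02) but at 41.7 and 57.6 without (-0.46).

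Replication genes followed with 32 of 55 members higher by 2-fold or more, 0 lower and a median of 1.06. ASF1B, a histone chaperone, was at 69.4 against 16.9 scaled TPM (2.01), TK1, thymidine kinase, at 104 against 29.4 scaled TPM (1.80) and TYMS, thymidylate synthase, at 185 against 55.4 scaled TPM (1.73). The helicase subunit MCM3 was at 193 against 81.3 scaled TPM (1.25), MCM4 had 1.43, and the sliding clamp gene PCNA 1.21. The genes of G1 were more mixed, with 8 of 27 higher by 2-fold or more and 2 lower. Cyclin CCNE2 had 1.64, E2F8 1.70 and the CDK inhibitor gene CDKN1A 1.09, while CCNG1 had -1.24. Tubulin genes, the building blocks of the spindle, had a median of 0.95 over 12 members, with TUBA1B at 645 against 197 scaled TPM (1.71).

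Promoter sequences are shown for division genes because members of these lists differed the same way, and the genes shown were picked among those that hold the motif. They come from RefSeq on build GRCh38.p14, run 5′ to 3′ on the gene's strand and cover the 250 bases before the start site, the first listed where a gene has several. Capitals mark the cell cycle homology region, TTTGAA on either strand, in DLGAP5 (chr14:55191586-55191835, minus strand) and MKI67 (chr10:128126424-128126673, minus strand), and an E2F site, TTTCCCGC on either strand, in MCM3, a helicase subunit (chr6:52284743-52284992, minus strand).
DLGAP5: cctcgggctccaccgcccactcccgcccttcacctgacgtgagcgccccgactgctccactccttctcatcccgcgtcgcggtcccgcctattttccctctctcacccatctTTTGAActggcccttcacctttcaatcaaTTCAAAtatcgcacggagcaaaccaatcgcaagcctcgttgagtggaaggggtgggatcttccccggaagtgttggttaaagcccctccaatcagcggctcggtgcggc
MKI67: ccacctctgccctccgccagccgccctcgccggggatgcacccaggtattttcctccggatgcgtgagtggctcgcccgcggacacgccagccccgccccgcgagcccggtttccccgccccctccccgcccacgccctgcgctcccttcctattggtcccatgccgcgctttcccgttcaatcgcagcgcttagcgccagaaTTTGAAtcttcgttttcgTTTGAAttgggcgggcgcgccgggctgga
MCM3: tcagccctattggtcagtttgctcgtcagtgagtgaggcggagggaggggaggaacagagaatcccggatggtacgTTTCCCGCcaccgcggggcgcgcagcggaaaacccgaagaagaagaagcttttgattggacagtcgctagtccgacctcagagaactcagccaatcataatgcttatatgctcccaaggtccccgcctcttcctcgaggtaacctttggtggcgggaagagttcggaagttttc
TTTGAA was found in 27 of the 53 mitosis genes at the floor with a promoter in the table, or 50.9%, against 13.6% of all 27305 promoters and 8.2% of the 7882 promoters of genes at the floor. CCAAT was in 73.6% of them, against 33% and 35.9%. The E2F letters were in 10 of 48 replication genes, or 20.8%, against 1.42% and 2.3%. These are matches of letters, not shown to be bound sites. All list members at the floor with a promoter were counted whatever their knockdown ratio, so the percentages describe the lists and not the knockdown.

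Genes induced by amino acid shortage and protein folding stress were lower in the knockdown. Their activator ATF4 is made when ribosomes are slowed by stress kinases. In this list 22 of 41 members were lower by 2-fold or more and 0 higher by 2-fold or more, with a median of -1.08 with hemin and -1.35 without. ATF4 was at 411 scaled TPM in knockdown cells against 1013 in control cells (-1.30). CHAC1, which breaks down glutathione, was at 4.73 scaled TPM in knockdown cells against 57.4 in control cells (-3.47, interval -3.84 to -3.36), and CBS, which makes cystathionine from homocysteine, at 29.6 against 264 scaled TPM (-3.14). Asparagine synthetase ASNS was at 10.1 against 37.0 scaled TPM (-1.82), the mTOR inhibitor gene DDIT4 at 27.6 against 208 scaled TPM (-2.89) and DDIT3, which encodes CHOP, at 5.25 against 17.6 scaled TPM (-1.66). DDIT3 had -0.43 without hemin. Amino acid transporters included SLC7A5 (93.6 against 319.7 scaled TPM, -1.77), and 5 of 19 members of their list were lower by 2-fold or more against 0 higher. The endoplasmic reticulum chaperone genes stood apart from these: 1 of 27 was higher by 2-fold or more and 1 lower, and HSPA5, the chaperone BiP, was at 313 against 285 scaled TPM (0.13). The shares of all genes were 6.01% higher and 4.11% lower.

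Heat shock genes lay on both sides of 0, with the inducible HSP70 genes lowest. HSPA6 (NM_002155), a strictly inducible HSP70, was at 2.84 scaled TPM in knockdown cells against 44.4 in control cells (-3.75), and its near-identical copy HSPA7 at 2.48 against 30.7 scaled TPM (-3.39). The near-identical HSP70 genes HSPA1A and HSPA1B were at 166 against 392 scaled TPM (-1.24) and 209 against 489.6 scaled TPM (-1.23). Without hemin HSPA6 and HSPA7 were lower in the knockdown too, at -3.49 and -2.92. HSPA1A and HSPA1B ran the other way there, with HSPA1A at 123 and 77.4 and a ratio of 0.67. For HSPA1A the control with hemin was thus the highest library. DNAJB1, an HSP40, had -0.98. The mitochondrial cochaperone gene HSPE1 was higher, at 1.09, and HSP90AA1 had 0.92. The list of 32 had 2 members higher by 2-fold or more, 5 lower and a median of 0.30.

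Promoters of lower genes of these stress lists, again picked among those with the motif, are printed by the same scheme. Capitals mark an amino acid response element, TGATGNAA on either strand, in CHAC1 (chr15:40953221-40953470, plus strand) and ASNS (chr7:97872409-97872658, minus strand), and a heat shock element, GAA, TTC and GAA each 2 bases apart on either strand, in HSPA6 (chr1:161524290-161524539, plus strand).
CHAC1: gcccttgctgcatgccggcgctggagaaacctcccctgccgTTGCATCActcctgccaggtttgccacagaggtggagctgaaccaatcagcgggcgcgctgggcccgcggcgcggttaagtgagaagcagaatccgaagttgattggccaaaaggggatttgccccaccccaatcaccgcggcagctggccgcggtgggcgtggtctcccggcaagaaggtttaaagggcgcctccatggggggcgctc
ASNS: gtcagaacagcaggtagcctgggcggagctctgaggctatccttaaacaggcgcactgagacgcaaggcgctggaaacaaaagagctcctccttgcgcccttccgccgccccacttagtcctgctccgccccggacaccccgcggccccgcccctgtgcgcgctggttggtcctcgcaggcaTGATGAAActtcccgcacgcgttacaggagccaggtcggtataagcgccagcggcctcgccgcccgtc
HSPA6: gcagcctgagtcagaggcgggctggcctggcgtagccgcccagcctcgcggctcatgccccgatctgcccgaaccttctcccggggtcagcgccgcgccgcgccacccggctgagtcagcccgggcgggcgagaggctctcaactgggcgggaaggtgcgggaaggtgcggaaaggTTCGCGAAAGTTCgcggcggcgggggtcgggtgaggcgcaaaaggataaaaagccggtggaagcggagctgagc
The response element letters were in 3 of 29 stress genes with a promoter in the table, or 10.3%, against 3.19% of all promoters and 1.45% of those of genes at the floor. The heat shock element was in 4 of 27 heat shock genes, or 14.8%, against 0.439% and 0.292%. For the platelet list, where GATA factors act, AGATAA was in 3 of 30, or 10%, against 9.37% and 4.68%. Here too list members were counted whatever their knockdown ratio.

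Genes for cytosolic ribosomal proteins were mostly lower, by less than 2-fold, with ratios from -1.45 to 0.68. Of 86 members 84 had a ratio below 0, 5 were lower by 2-fold or more and 0 higher by 2-fold or more, with medians of -0.73 in both hemin states. RPS20 was at 1131 against 3095 scaled TPM (-1.45) and RPLP0 at 2252 against 5279 scaled TPM (-1.23). The median was -0.51 from the deposited values without scaling and -0.89 with the length trend removed. Mitochondrial ribosomal protein genes had a median of 0.19, with 0 of 75 past 2-fold on the higher side and 0 on the lower.

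Clustered histone genes were higher, and with hemin so were short structural RNAs. Of 30 histone genes at the floor 14 were higher by 2-fold or more, 0 lower and all 30 above 0, with a median of 0.96. The linker histone gene HIST1H1C was at 144 against 38.1 scaled TPM (1.91) and HIST1H2BK at 503 against 206 scaled TPM (1.29). Most histone messages end without a poly-A tail, as do the structural RNAs. Of 8 such RNAs at the floor 6 were higher by 2-fold or more, with a median of 1.77 with hemin and -0.17 without. SNORD3A, the U3 small nucleolar RNA, was at 151 scaled TPM in knockdown cells against 18.2 in control cells with hemin and at 7.85 and 6.35 without. RN7SK, which holds back the elongation factor P-TEFb, was at 136 against 39.2 scaled TPM (1.78), and RPPH1, the RNA of RNase P, at 27.8 against 4.51 scaled TPM (2.50). Outside that list, the row RN5-8S1, the 5.8S ribosomal RNA, was at 3477 scaled TPM in knockdown cells against 512 in control cells with hemin and at 80.8 and 453 without, and the U2 small nuclear RNA row RNU2-2 at 114 against 7.30 scaled TPM (3.87). The knockdown library with hemin was thus the highest of the 4 for these RNAs. Their part in the histone values, or in those of any other gene, was not tested. Whether the 4 libraries kept RNA without a poly-A tail to the same degree was not tested either. Histone genes were higher without hemin as well, with a median of 1.73.

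**Figure D4:**
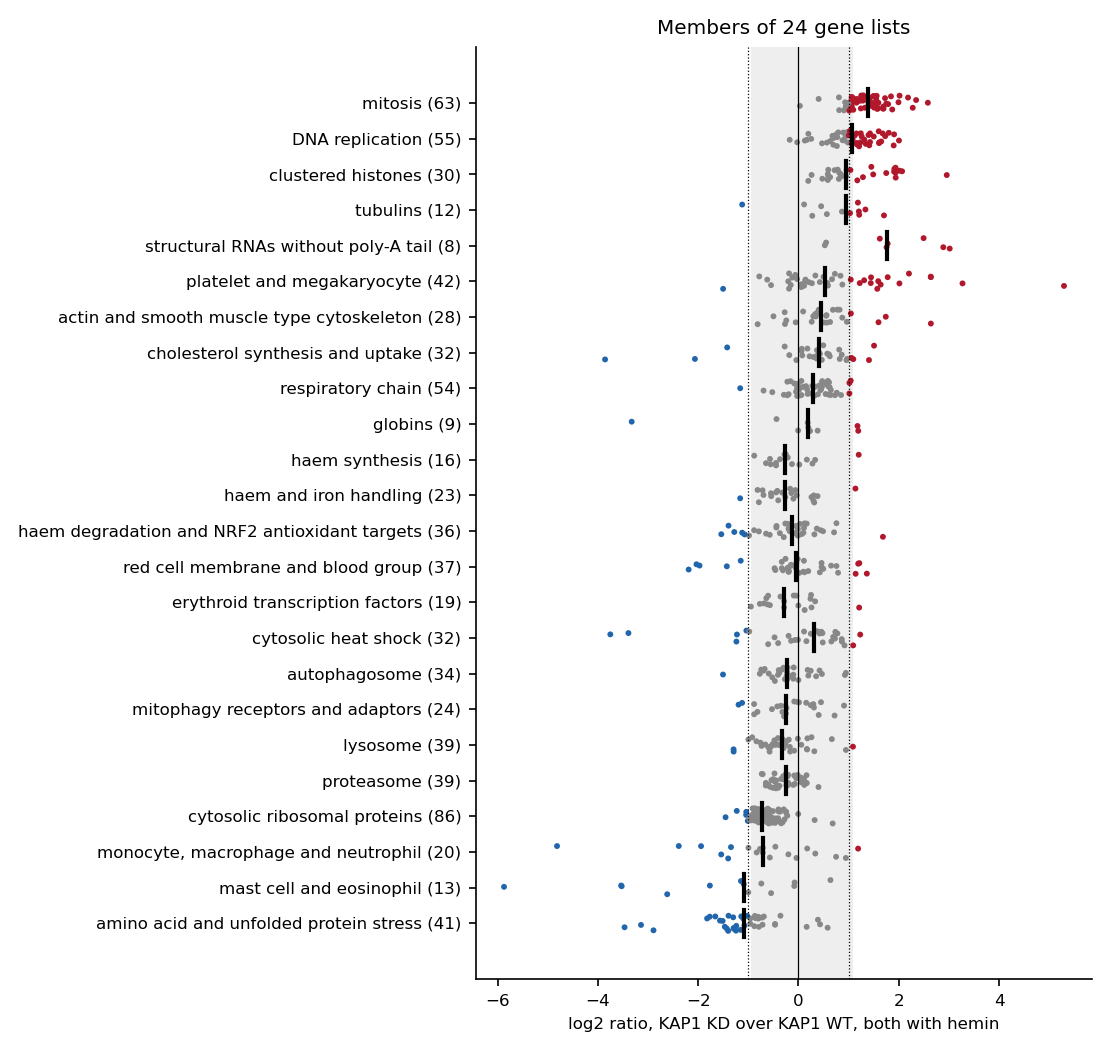
Log2 ratio of knockdown over control with hemin for the members of 24 gene lists, 1 point per gene at the floor, with the number of members in brackets. Bars mark the list's median, the grey band holds the middle 90% of all genes and dotted lines mark 2-fold. Mitosis and replication genes lie to the right of 0 and the stress, mast cell and ribosomal protein genes to the left.

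The series title names mitophagy, the removal of mitochondria that maturing red cells carry out. Its receptor in red cells, BNIP3L or NIX, was at 80.7 scaled TPM in knockdown cells against 142 in control cells with hemin and 54.5 and 92.7 without, log2 ratios of -0.82 and -0.76. BNIP3L is another whole-number row, so it has no counting interval and its levels rest on the same assumed unit. Of 24 mitophagy receptor and adaptor genes, 2 were lower by 2-fold or more, the deubiquitinase gene USP30 (5.12 against 12.3 scaled TPM, -1.19) and the adaptor gene CALCOCO2 (37.7 against 82.6 scaled TPM, -1.12), and 0 higher. Among all genes at the floor 6.01% were higher and 4.11% lower by that much. The counts for autophagosome and lysosome genes below are near or under those shares. The adaptor gene SQSTM1, which encodes p62, was at 138 against 255 scaled TPM (-0.88), the kinase gene PINK1 had -0.32 and the receptor genes BNIP3 and FUNDC1 had 0.31 and 0.91. Among 34 autophagosome genes the 1 past 2-fold was GABARAPL1, an ATG8 family member, at 59.2 scaled TPM in knockdown cells against 169 in control cells (-1.50). GABARAPL1 was at 27.3 and 33.9 without hemin, so the control with hemin was well above the other 3 libraries. ATG12 had -0.77 and BECN1 -0.21, both from whole-number rows, and ATG4D, a protease for ATG8 proteins, had 0.95. Lysosome genes had a median of -0.33, with 2 of 39 lower by 2-fold or more, the protease genes CTSB (102 against 251 scaled TPM, -1.29) and CTSD (152 against 373 scaled TPM, -1.29), and 1 higher. Proteasome genes had a median of -0.25 with hemin and 0.25 without, and none of 39 was past 2-fold in the comparison with hemin (0 higher and 0 lower).

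The title also names microRNAs, which block messages that pair with their seed, bases 2 to 8. The host gene of miR-22, MIR22HG (NR_028504), was at 10.3 scaled TPM in knockdown cells against 32.2 in control cells with hemin (-1.60, interval -1.84 to -1.46) and at 4.08 and 13.9 without, so each knockdown library was below its control. The mature strands cut from this host are printed from RefSeq on GRCh38.p14, with the seed in capitals, from chr17:1713914-1713935 and chr17:1713952-1713973 on the minus strand.
miR-22-3p: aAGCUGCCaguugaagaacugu
miR-22-5p: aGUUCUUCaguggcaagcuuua
Mature microRNAs were not measured in these libraries of longer RNA, so the values are of the host transcript alone. MIR22HG was the 1 of 16 microRNA host and processing genes past 2-fold, and MIR17HG, the host of the miR-17-92 cluster, had -0.07. Of all genes at the floor 6.01% were higher and 4.11% lower by 2-fold or more.

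Genes of metabolism had members past 2-fold on both sides. In cholesterol synthesis and uptake 4 of 32 genes were higher by 2-fold or more, among them HMGCS1 (189.9 against 71.3 scaled TPM, 1.41), an early enzyme of the pathway, and ACAT2 (1.51). The 3 lower by 2-fold or more carry lipid out of cells: APOE was at 6.46 against 100.2 scaled TPM (-3.86), APOC1 at 27.0 against 114 scaled TPM (-2.06) and the exporter gene ABCA1 at 2.13 against 6.53 scaled TPM (-1.42). Of 30 glycolysis and hypoxia target genes, 5 were lower by 2-fold or more and 2 higher, while 19 had a ratio above 0, with a median of 0.24. Lactate dehydrogenase LDHA was at 295 against 106 scaled TPM (1.48) and PKLR, the pyruvate kinase of red cells and liver, at 1.15 against 5.86 scaled TPM (-1.94). Respiratory chain genes had a median of 0.30, with 3 of 54 higher by 2-fold or more and 1, the cytochrome oxidase subunit COX4I1 (-1.16), lower. These respiratory counts are near or under the shares of all genes, 6.01% higher and 4.11% lower. TXNIP, an alpha-arrestin that limits glucose uptake, was at 274 scaled TPM in knockdown cells against 40.9 in control cells (2.73), and its relative ARRDC4 had 0.93 while ARRDC3 had -0.92.

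Signalling and survival genes had members past 2-fold on either side. The proapoptotic genes BBC3 (PUMA) and BMF were at 13.1 against 54.6 scaled TPM (-2.02) and 3.71 against 15.9 scaled TPM (-1.96), and PMAIP1 (NOXA) had -1.27. Of 23 p53 target and BCL2 family genes 4 were lower by 2-fold or more and 1 higher. The list as a whole was near 0, with a median of 0.07 and 15 members above 0. JUN, an AP-1 subunit, was at 42.4 against 12.8 scaled TPM (1.69), and the MYC antagonist gene MXD4 at 8.06 against 25.8 scaled TPM (-1.62). MYC itself was at 506 against 878 scaled TPM (-0.79) with hemin and 583 against 456 without. Interferon response genes had 4 of 43 members lower by 2-fold or more and 1 higher, with the virus-tethering gene BST2 at 7.02 against 27.7 scaled TPM (-1.91). Of all genes 4.11% were lower and 6.01% higher by that limit. Of 24 matrix and adhesion genes 4 were higher by 2-fold or more, led by NOV, a CCN family matricellular protein (25.9 against 2.87 scaled TPM, 2.97), and 5 lower, led by ICAM1, a leukocyte adhesion receptor (3.79 against 30.4 scaled TPM, -2.85). Of 14 genes listed as imprinted, 2 were higher by 2-fold or more and 1 lower, with a median of -0.07. SGCE, a sarcoglycan, was at 7.43 against 1.57 scaled TPM (1.94) and IGF2R, the mannose 6-phosphate receptor, at 9.27 against 25.5 scaled TPM (-1.41). Whether these genes are imprinted in HEL cells was not tested.

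Markers of other lineages were checked because a mixed culture would carry them. Of 31 lymphoid, stromal and epithelial markers 16 had a row among those used and 11 reached the floor, 4 higher by 2-fold or more and 2 lower. Their summed level was 1082 scaled TPM in knockdown cells and 943 in control cells. The median of the 11 was -0.48, with 6 below 0, and it became 0.10 with a floor of 20. Members past 2-fold on the lower side were the keratin gene KRT18 (30.1 against 75 scaled TPM, -1.30) and the B cell receptor gene CD79A (3.33 against 8.51 scaled TPM, -1.23). CD2, a T cell and NK cell adhesion receptor, was at 128 against 59.1 scaled TPM (1.11), and PECAM1, of endothelium and platelets, at 109 against 40.3 scaled TPM (1.42). CDH5, the endothelial cadherin, had 1.45 and the smooth muscle actin gene ACTA2 1.60. CD3E, COL1A1 and KRT5 were not analysed here. The epithelial marker EPCAM was near 0 in both, at 0.0275 and 0.666 scaled TPM. Of the red cell markers, gamma globin and GATA1 were well above the floor, while the band 3 gene SLC4A1 was at 0.413 and 2.03 scaled TPM.

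The 20 genes furthest up and the 20 furthest down include low genes outside these lists. On the higher side ACTL8, an actin-like gene, was at 16.2 against 0.436 scaled TPM (4.15), and RD3, known from photoreceptors, at 6.13 against 0.154 scaled TPM (3.34). KBTBD12, a kelch repeat gene, was at 11.0 against 0.646 scaled TPM (3.32) and NTS, which encodes neurotensin, at 13.6 against 1.31 scaled TPM (2.96). The olfactory receptor gene OR2T8 was at 13.4 against 1.05 scaled TPM (3.16), and it has a close relative, OR2T33, with which it could share reads. Without hemin the log2 ratios of ACTL8, KBTBD12 and OR2T8 were 3.40, 3.38 and 3.12. On the lower side TGM2, a transglutaminase, was at 22.0 against 171 scaled TPM (-2.93), PLVAP, a protein of endothelial diaphragms, at 3.31 against 37.6 scaled TPM (-3.32), and S100P, a calcium-binding protein, at 2.43 against 24.3 scaled TPM (-3.09). DES, the muscle filament desmin, was at 0.126 against 6.75 scaled TPM (-3.53), from 6 and 279 reads, and LRP1, an endocytic receptor, at 0.271 against 5.47 scaled TPM (-2.95).

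The comparison without hemin shares no library with this one. Of the 655 genes higher by 2-fold or more with hemin, 618 were also at the floor without hemin. There 294 of them were again higher by 2-fold or more, 295 were on the same side but under 2-fold and 23 on the opposite side under 2-fold. Of the 448 lower genes 402 were at that floor, 220 again lower by 2-fold or more, 159 on the same side under 2-fold and 21 on the opposite side under 2-fold. Past 2-fold the opposite way were 6 of the higher and 2 of the lower genes. Without hemin 6.71% of 10878 genes were higher by 2-fold or more and 6.44% lower by 2-fold or more.

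**Figure D5:**
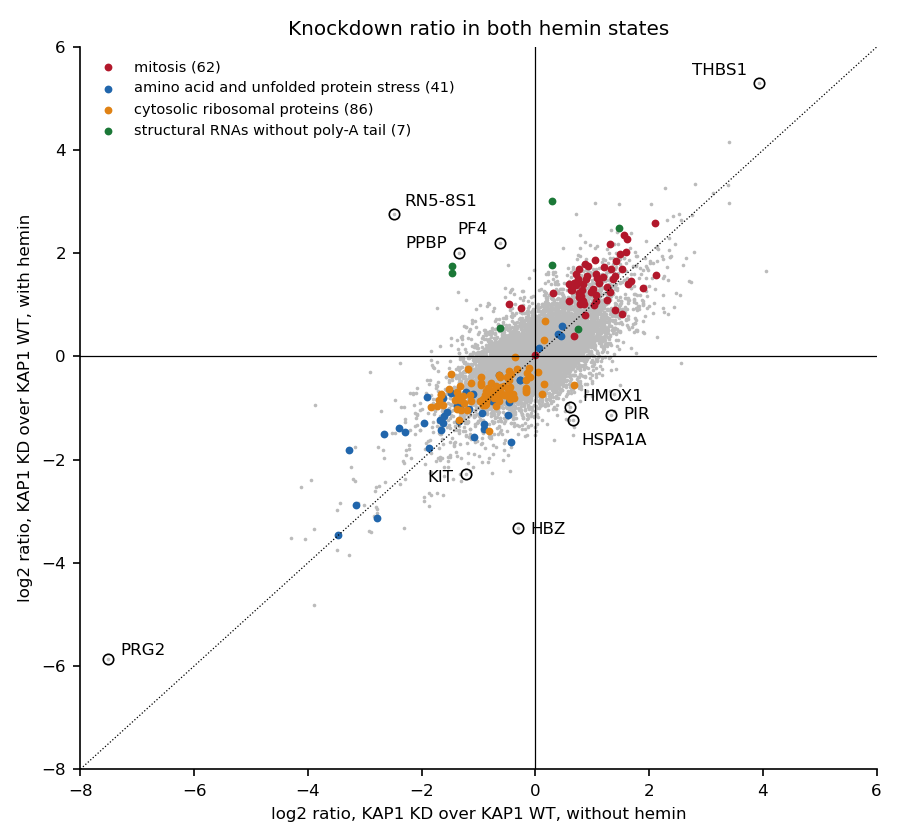
Log2 ratio of knockdown over control without hemin (horizontal axis) and with hemin (vertical axis) for genes at the floor in both states, 1 grey point per gene, with members of 4 lists in colour. The dotted line marks equal ratios. Mitosis genes lie above 0 in the comparison with hemin, HBZ lies near 0 without hemin and far below with it, and RN5-8S1 and PPBP lie on opposite sides of 0 in the 2 states.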

How the data were processed

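RNA from 4 HEL groups was measured in 1 library each, made from 250 ng of total RNA with a TruSeq RNA v2 kit, per the labels' protocols. The authors deposited 1 RPKM value for each RefSeq transcript and library, per the file headers. The submitters' processing notes name Bowtie and the hg19 build, with counting and filters not given in the sources used here. Deposited RPKM were not scaled to depth: after a factor for each library, the 4 values of a row stood in whole-number proportion. Whole reads were recovered for 24533 of 24533 rows, within 0.0002 reads plus a relative 4e-09. The other 5 rows, whole numbers as deposited, are TRIM28, BNIP3L, BECN1, ATG12 and a BAD transcript. Their origin and unit are not known, and they were scaled like the rest. Reads that share a common factor, as 7.61% of random sets of 4 do, are recovered divided by it, which makes their interval too wide.

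Deposited values were divided by the library factor described above and by effective totals from a trimmed mean of log ratios (TMM, trims of 0.3 and 0.05). The TMM factors with hemin were 1.03 for the knockdown and 0.994 for the control. The pseudocount was 0.5 scaled TPM and the floor 5 in the higher library. With 1 library a group no test was run. The recovery and scaling were tested on simulated data. Work was done in Python 3.11.15 with numpy 2.4.6, scipy 1.17.1 and pandas 2.3.3.

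The members, the 48 gene lists, the motifs and the rule for named genes were chosen with earlier results of these data known. That rule takes the 20 highest and 20 lowest log2 ratios among genes at the floor with at least 20 reads over both libraries, TRIM28, THBS1, HBZ and KIT, up to 4 members each way in a list, members of lists described in full, and genes past 2-fold in opposite ways in the 2 hemin states. Other members named here were chosen after their values were seen. Other scalings, pseudocounts, floors, limits, transcript choices and a length correction were tried.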

Additional observations from a re-analysis of the deposited data

Results flagged for a closer look

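For 8 genes at the floor in both hemin states the knockdown ratio was past 2-fold one way with hemin and past 2-fold the other way without. With 1 library per group the difference between the states was not tested. PPBP, a platelet chemokine gene, had a log2 ratio of 2.02 with hemin and -1.34 without. CCR4, a chemokine receptor gene, had 1.10 and -1.23, from 11.1 and 4.90 scaled TPM with hemin. PIR, which encodes the nuclear protein pirin, had -1.13 and 1.32, with the control at 2.64 scaled TPM without hemin and 36.6 with it. Among short or noncoding RNAs, RN5-8S1 had 2.76 and -2.48, RMRP 1.76 and -1.47, SNORA73B 1.62 and -1.47, and BCYRN1, a brain-enriched small RNA, 1.25 and -1.36. Whether the libraries kept such RNAs to the same degree was not tested. The ribosomal protein pseudogene RPL13AP6 had -1.05 and 1.39, and it may share reads with its parent gene.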

How the results depend on the processing

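No paired analysis was possible because each group was 1 library and no test was made. The count of genes at least 2-fold higher was 1106 with the deposited values as they stand, 406 with a floor of 20, 1641 at a 1.5-fold limit and 57 at a 4-fold limit. The count at least 2-fold lower was 298, 274, 1391 and 70 under the same settings, and 675 with no floor. For TRIM28 the deposited values without scaling gave a log2 ratio of -0.86. The median of the olfactory receptor list, 1.43 over 5 genes, became -0.22 with a floor of 1 and -0.10 with no floor. Over 47 lists, 476 of 562 medians moved by no more than the typical gene's counting error, and 18 medians of 11 lists changed sign, of which only the olfactory list was past 2-fold. Over 381 named genes, 2783 of 3410 ratios moved by no more than their own counting error, and 19 ratios of 12 genes changed sign, all of them genes within 0.19 of 0. Of 188 named genes past 2-fold, between 172 and 188 stayed past it under the other scalings, pseudocounts and the transcript with the most reads. A lower floor leaves a gene's ratio as it is, so it could not change this count. Many of these genes were also picked for their extreme ratios. No value with the length trend removed exists for TRIM28, whose length is not recovered. Restricting genes to NM transcripts, chosen after seeing the data, gave 622 higher and 434 lower. Depth limits low genes: the median counting interval was 0.21 wide on the log2 scale. The spread between cultures is unknown.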

Other observations

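The groups below were put together after their values were seen, and they are given as values only. Host genes of small nucleolar RNAs, whose spliced transcripts carry these RNAs in introns, were mostly lower in the knockdown. With hemin 11 of 19 at the floor were lower by 2-fold or more and 0 higher, with a median of -1.10. The median of the same genes without hemin was -0.965, so the lower level was not particular to hemin. GAS5 was at 748 scaled TPM in knockdown cells against 3167 in control cells (-2.08) and SNHG1 at 153 against 455 scaled TPM (-1.57). ZNFX1-AS1 was at 160.2 against 558 scaled TPM (-1.80). Translation factors of the eIF and eEF families had a median of -0.28 with hemin and -0.29 without. Of 45 members 4 were lower by 2-fold or more and 1 higher, beside 4.11% and 6.01% of all genes, and 16 had a ratio above 0. The elongation factor gene EEF1G was at 1689 against 3663 scaled TPM (-1.12).

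Genes of the NF-kB pathway, which switches on inflammatory genes, had some members on the higher side with hemin. Of 25 at the floor 8 were higher by 2-fold or more and 2 lower, with a median of 0.33. The lower ones were the adhesion receptor gene ICAM1 (-2.85), furthest from 0 in the group, and TNFAIP2 (-1.34). The chemokine gene CXCL3 was at 29.7 against 10.1 scaled TPM with hemin (1.52) and had -0.11 without. The inhibitor gene NFKBIA was at 56.1 against 27.4 scaled TPM (1.02, and 0.05 without hemin). BIRC3 had 1.31 and 0.12, CD69 1.27 and -0.23, and the endotoxin receptor gene TLR4 1.30 and 0.06. For NFKBIA the control with hemin was the lowest of the 4 libraries. Of 5 Notch pathway genes at the floor 2 were lower by 2-fold or more and 3 under 2-fold. HES1, a target gene, was at 12.8 against 61.6 scaled TPM (-2.22) with hemin and had -0.45 without, and HES6 was at 3.81 against 26.5 scaled TPM (-2.64). The ligand gene JAG1 had 0.85, and the receptor genes NOTCH1 and NOTCH2 had -0.59 and 0.01.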
